A study of Mus musculus with 4 samples.

Results

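Complement and coagulation factors are plasma proteins of host defence and clotting, most of which are made by hepatocytes, and their transcripts were followed in the fatty liver of 4 aP2-SREBP-1c mice. The set comprised 38 listed genes, 18 of complement and 20 of coagulation. A gene was measured by the probe set that carried its symbol and no other, and where a gene had several, the one with the highest mean over the 4 arrays was taken. In this way, 35 of the 38 genes were measured, 17 of complement and 18 of coagulation, among 19938 genes in all. The complement component C3 and the carboxypeptidase Cpb2, which stabilizes fibrin, had no probe set used here, and the plasma kallikrein gene Klkb1 shared its only probe set with a second gene.

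All 4 mice were male and carried the N-terminal active domain of human SREBP-1c, a transcription factor of lipid synthesis, under the aP2 promoter, which drives expression in adipose tissue and not in liver. They were 24 weeks old by their labels, and the methods of the study a wider span. These mice are lipodystrophic and insulin resistant, so the liver fat arises in an animal that lacks normal adipose stores. RNA of 1 liver per mouse was hybridized to 1 Mouse Gene 1.0 ST array and summarized as log2 expression, where a step of 1 is a doubling. Control arrays from C57Bl6 and alb-SREBP-1c mice were not analysed here. The data therefore answer how high each gene was measured and how far it varied between mice with the same transgene, and no test between groups or p-value was possible. Errors are SDs over n = 4 mice.

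Complement is a cascade of proteases that starts when C1 binds antibody (classical pathway), when mannose-binding lectins bind sugars on microbes (lectin pathway) or by spontaneous turnover that factor B amplifies (alternative pathway). All routes cleave C3 and then C5, and the terminal components C6 to C9 form a pore in the target membrane. Coagulation is a related cascade, started by the contact system or by tissue factor, in which proteases that need vitamin K activate prothrombin, and thrombin turns fibrinogen into fibrin. Plasmin dissolves the clot, and serpins, the protein C system and complement regulators hold both cascades in check.

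The arrays differed in ways that touch all genes. Background was set from receptors of smell and pheromones, most of which liver is not known to use. A gene passed if all 4 arrays gave it a value over the 95th percentile of the 1210 probe sets of these receptors, which lay between 5.33 and 5.52. The limit was highest in mouse 1, and the highest decile of genes by mean lay lower there, with a median difference of -0.23 from the mean of the others. Hepatocyte markers were above background in 12 of 12 measured genes, with a median SD of 0.07. Of fat cell markers, Plin1, Retn and Fabp4 were above background and Adipoq and Lep were not, and Plin1 and Retn were highest in mouse 1. Of platelet markers, Ppbp, Itga2b, Gp5 and Treml1 were above background and Pf4 and Gp9 were not. Of 11 measured genes of pancreatic acinar cells, 10 were above background, and their summed linear level was 3415, 770.2, 961.2 and 2855 in mice 1 to 4. In bulk tissue, fewer cells of a type and less RNA per cell cannot be told apart.

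All 35 measured genes were above background, against 61.5% of all genes. Their mean levels ran from 7.64 for C2 to 13.47 for Fgg, and 30 of the 35 belonged to the highest decile of genes above background, 15 of each system. A range of over 1.5-fold across the 4 mice was found for 2 members, both of complement, against 12.9% of all genes above background and 14.1% of the highest decile. These were Mbl1, a mannose-binding lectin, with a range of 2.01-fold, and C1s1, which encodes the protease C1s of the first component, with 1.57-fold. The member next below this limit was Pros1, the cofactor protein S, with 1.44-fold. No coagulation factor passed it by the probe set used, but a second probe set of Fga spanned 1.69-fold. After quantile normalization of the 4 arrays, C1s1 spanned 1.305-fold and Mbl1 alone passed the limit. The spread between mice had a median SD of 0.11 for complement and 0.11 for coagulation, but 0.118 and 0.075 after quantile normalization of the 4 arrays. It was 0.15 over all genes above background and 0.15 over their highest decile. After quantile normalization these were 0.138 and 0.104, so complement then lay above the highest decile and coagulation below it.

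**Figure D1:**
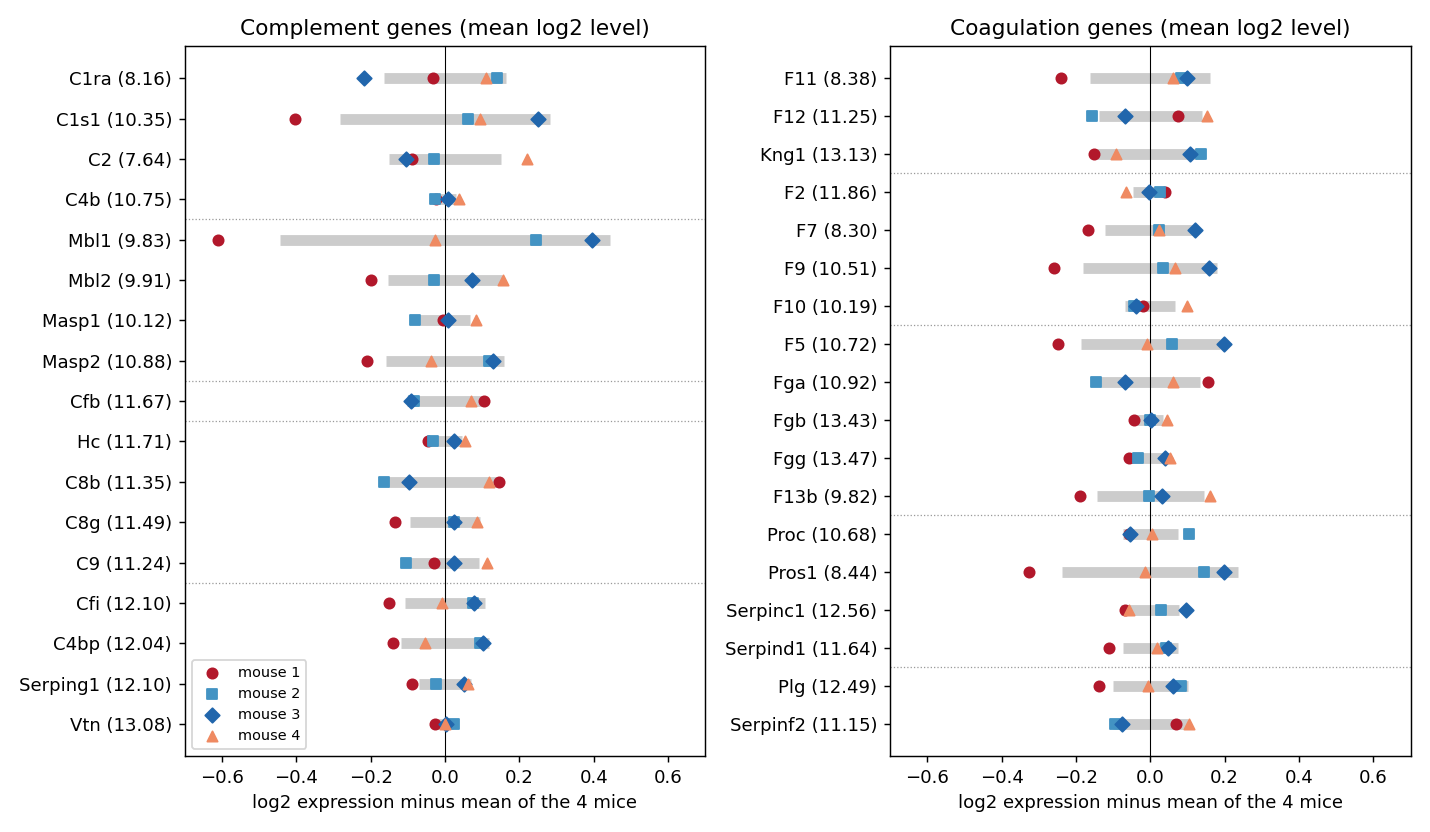
Log2 expression minus the mean of the 4 mice (horizontal axis) for the 35 measured genes, with 1 symbol per mouse and the mean level in brackets. Grey bars give ± 1 SD over 4 mice and dotted lines separate the branches. The values of Mbl1 spread over 2.01-fold, whereas those of Vtn, C4b and Fgb nearly coincide.

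In 1-unit intervals of log2 expression, the median SD of all genes above background was 0.15 to 0.16 from 5 to 11 and lower above 11. The members were therefore also set beside genes of the same level. In the deposited values, the SD was below the median of all genes in the same interval for 24 of 35 members. These were 11 of 17 in complement and 13 of 18 in coagulation. The comparison was not repeated after quantile normalization, which changed the order of the genes by SD. Between 11 and 12, 9 members had a median SD of 0.094, and the median of all genes there was 0.14. Between 13 and 14, 4 members (Vtn, Kng1, Fgb and Fgg) had a median SD of 0.044, against 0.10 for the 37 genes of that interval. Kng1, the kininogen of the contact system, lay above the median there and the other members below it. The highest value on any array was between 14.48 and 14.53, so these genes lay near the upper end of the scale.

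**Figure D2:**
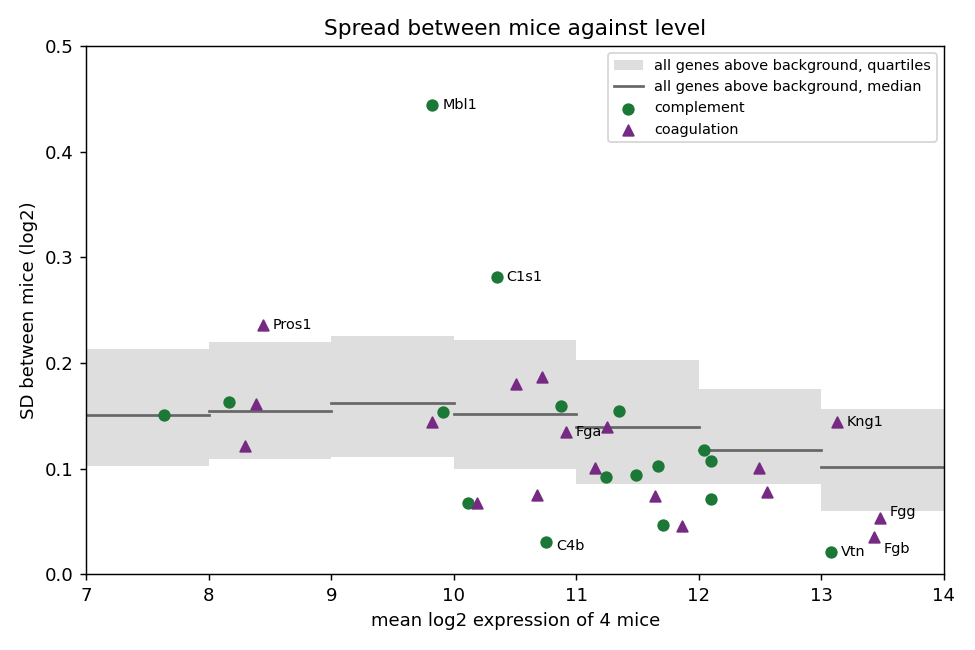
SD between the 4 mice (log2, vertical axis) against mean log2 expression (horizontal axis) for 17 complement genes (circles) and 18 coagulation genes (triangles). Values are as deposited. The grey area spans the lower to the upper quartile and the line marks the median of all genes above background in each 1-unit interval. Mbl1, C1s1 and Pros1 lie above the grey area, and C4b, Vtn, Fgb and Fgg are among those below it.

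Among the recognition molecules of the lectin pathway, Mbl1 and its paralogue Mbl2 differed in spread. Their promoters, from 250 bases before to 50 bases after the transcription start, are shown because both genes belong to this small family and Mbl1 had the largest SD of all members (RefSeq, GRCm38.p6, plus strand, chr14:41151206-41151505 and chr19:30232678-30232977). Capitals mark the longest run of letters that both promoters share.
Mbl1: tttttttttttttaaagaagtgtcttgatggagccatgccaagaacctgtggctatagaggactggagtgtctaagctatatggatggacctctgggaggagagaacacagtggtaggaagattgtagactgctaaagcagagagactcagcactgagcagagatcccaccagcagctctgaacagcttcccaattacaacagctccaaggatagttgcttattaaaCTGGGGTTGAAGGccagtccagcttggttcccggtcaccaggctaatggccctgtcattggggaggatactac
Mbl2: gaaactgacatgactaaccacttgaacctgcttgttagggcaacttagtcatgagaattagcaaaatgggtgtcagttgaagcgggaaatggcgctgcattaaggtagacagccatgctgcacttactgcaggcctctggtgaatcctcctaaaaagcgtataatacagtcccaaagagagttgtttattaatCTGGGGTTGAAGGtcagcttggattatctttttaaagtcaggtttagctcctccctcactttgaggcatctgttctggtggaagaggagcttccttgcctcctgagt
The shared run has 13 bases and begins at position -23 from the transcription start in Mbl1 and at -57 in Mbl2, and 3 of 32851 promoters in the table hold it, those of both lectins and of Slc25a53. Mbl1 was measured at 9.21, 10.07, 10.22 and 9.80 in mice 1 to 4 (9.83 ± 0.44). Mouse 1 was the lowest by a wide gap, and without it the range was 1.34-fold. Mbl2 was measured at 9.71, 9.89, 9.99 and 10.07 (9.91 ± 0.15), a range of 1.28-fold, again with mouse 1 the lowest but with mouse 4 the highest.

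The lectins act through the proteases Masp1 and Masp2, which varied less than Mbl1. Masp1 was found at 10.12 ± 0.07 with a range of 1.12-fold. Masp2, which cleaves C4 and C2, was found at 10.88 ± 0.16 and was lowest in mouse 1 with 10.67. Over the 4 lectin pathway genes, mouse 1 differed from the mean of the others by a median of -0.27 as deposited. The median over the highest decile, to which all 4 belong, was -0.23. After quantile normalization, the difference of mouse 1 was -0.57 in Mbl1, -0.02 in Mbl2, 0.20 in Masp1 and -0.05 in Masp2.

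In the classical pathway, the proteases of C1 and the component C4 differed in spread. C1s1, which matched the listed symbol C1s through its RefSeq synonym, was measured at 9.94, 10.41, 10.60 and 10.44 in mice 1 to 4 (10.35 ± 0.28). Mouse 1 stood below the other mice, among which the range was 1.14-fold. C1ra, the protease that activates C1s, lies next to C1s1 on chromosome 6 with 0 genes between them, and was measured at 8.13, 8.30, 7.94 and 8.27 (8.16 ± 0.16), lowest in mouse 3. A second probe set, shared by C1ra and its near-identical copy C1rb, gave 10.23, 10.20, 10.35 and 10.29, with mouse 3 the highest, so the order of the mice was not the same in both probe sets. C4b, the source of the C3 convertase of the classical and lectin pathways, was measured at 10.73, 10.73, 10.76 and 10.79 (10.75 ± 0.03), a range of 1.05-fold. C4b has a near-identical copy, C4a, from which probes may take up signal, so both are uncertain as separate measurements. C2, the protease that joins C4 in the convertase, was found at 7.64 ± 0.15 and was highest in mouse 4 with 7.86.

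Cfb encodes factor B, the protease of the alternative pathway, and lies next to C2 on chromosome 17. It was measured at 11.77, 11.58, 11.58 and 11.74 in mice 1 to 4 (11.67 ± 0.10), with mice 1 and 4 above mice 2 and 3 by a small margin and a range of 1.15-fold. Of the terminal pathway, Hc, which encodes C5, was measured at 11.67, 11.68, 11.73 and 11.76 (11.71 ± 0.05). The 4 mice spanned 1.07-fold, which put Hc with C4b and Vtn among the 3 complement genes of smallest SD in the deposited values. The pore components C8b, C8g and C9 were found at 11.35 ± 0.15, 11.49 ± 0.09 and 11.24 ± 0.09. In the deposited values, mouse 4 was the highest for 3 of the 4 terminal genes, and C8b was highest in mouse 1 with 11.49. Mouse 4 was the highest for 3050 of 12264 genes above background and for 317 of 1227 in the highest decile. After quantile normalization, Hc, C8b and C9 were highest in mouse 1 and C8g in mouse 4.

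All 4 complement regulators were lowest in mouse 1 in the deposited values, as were 78.0% of the highest decile of genes. After quantile normalization of the 4 arrays, none of them was lowest in mouse 1 alone, and Vtn and Serping1 were highest there. Vtn, vitronectin, which keeps the terminal complex out of membranes, was measured at 13.05, 13.10, 13.08 and 13.08 (13.08 ± 0.02), a range of 1.04-fold and, in the deposited values, the smallest SD of all members. Serping1, the C1 inhibitor, which blocks C1r, C1s and also the contact proteases, was found at 12.10 ± 0.07. Cfi, the protease factor I that cleaves C3b and C4b, and C4bp, its cofactor for C4b, spanned 1.17-fold and 1.18-fold. In mouse 1, Cfi was 11.95 and C4bp 11.90, below the other mice in both cases.

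The contact system comprised 3 measured genes. F12, which starts the contact pathway on charged surfaces, was found at 11.25 ± 0.14, with 11.33 and 11.41 in mice 1 and 4 and 11.10 and 11.18 in mice 2 and 3. Mice 1 and 4 were thus the higher ones, as for Cfb. F11, which links contact activation to F9, was 8.14 in mouse 1 and between 8.44 and 8.48 in the others. Kng1, the precursor of bradykinin, was found at 13.13 ± 0.14 and was lowest in mouse 1 with 12.97. The probe set shared by Klkb1 and Cyp4v3 gave 11.07, 11.19, 11.28 and 11.21, which cannot be assigned to either gene.

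Among the clotting factors F2, F7, F9 and F10, which depend on vitamin K, F2, prothrombin, varied least in the deposited values. After quantile normalization, F2 had the largest SD of these genes, 0.126, close to the 0.125 of F10. F2 was measured at 11.90, 11.89, 11.86 and 11.80 in mice 1 to 4 (11.86 ± 0.05). The range was 1.08-fold as deposited, and F2 was the only coagulation gene with its lowest value in mouse 4. F7, which acts with tissue factor, and F10, which cleaves prothrombin, lie next to each other on chromosome 8. F7 was found at 8.30 ± 0.12 and F10 at 10.19 ± 0.07. F9, the protease that is lacking in haemophilia B, was found at 10.51 ± 0.18, with 10.25 in mouse 1 and 10.54 to 10.66 in the other mice. F5, the cofactor of F10, was similar in this respect, at 10.47 in mouse 1 and between 10.71 and 10.92 in the others (10.72 ± 0.19).

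Fibrinogen is built from 3 chains, encoded by Fga, Fgb and Fgg, which form a cluster on chromosome 3 with Fga between the other two. Their promoters are shown because the genes are neighbours with a shared product (RefSeq, GRCm38.p6, chr3:83025903-83026202, plus strand, chr3:83049814-83050113, minus strand, and chr3:83007474-83007773, plus strand). In the deposited values, the mice also had another order for Fga than for Fgb and Fgg. Capitals mark matches, on either strand, to short motifs written for factors of hepatocyte and acute phase transcription.
Fga: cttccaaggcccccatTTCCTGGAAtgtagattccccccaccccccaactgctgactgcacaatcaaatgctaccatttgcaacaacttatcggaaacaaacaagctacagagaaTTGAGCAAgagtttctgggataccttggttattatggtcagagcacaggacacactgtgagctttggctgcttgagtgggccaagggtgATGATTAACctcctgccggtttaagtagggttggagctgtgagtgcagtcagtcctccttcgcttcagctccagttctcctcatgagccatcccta
Fgb: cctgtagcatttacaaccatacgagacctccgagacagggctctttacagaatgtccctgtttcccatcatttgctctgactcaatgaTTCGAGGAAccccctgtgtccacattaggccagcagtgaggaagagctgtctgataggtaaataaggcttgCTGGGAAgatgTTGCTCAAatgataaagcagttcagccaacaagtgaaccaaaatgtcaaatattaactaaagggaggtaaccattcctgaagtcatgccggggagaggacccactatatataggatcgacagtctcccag
Fgg: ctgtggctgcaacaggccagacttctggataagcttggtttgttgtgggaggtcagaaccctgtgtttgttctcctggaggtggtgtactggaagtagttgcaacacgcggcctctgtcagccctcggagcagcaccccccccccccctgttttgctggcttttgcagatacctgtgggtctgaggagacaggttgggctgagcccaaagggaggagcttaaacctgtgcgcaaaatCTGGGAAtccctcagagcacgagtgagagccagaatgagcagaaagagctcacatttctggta
Fga held matches to the motif TTCNNNGAA (STAT), to TTGCNNAA (C/EBP) and to GTTAATNAT (HNF1), Fgb to TTCNNNGAA, TTGCNNAA and CTGGGAA (a type 2 response element of interleukin-6), and Fgg to CTGGGAA. A match is a description of the letters and no binding was measured.

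Fga was measured at 11.07, 10.77, 10.85 and 10.98 in mice 1 to 4 (10.92 ± 0.13), so mice 1 and 4 were the higher ones. A second probe set of Fga gave 9.09, 8.34, 8.53 and 9.0 (8.74 ± 0.36), with the same 2 mice on top but a wider range of 1.69-fold, against 1.23-fold. Fgb was measured at 13.38, 13.43, 13.43 and 13.47 (13.43 ± 0.04) and Fgg at 13.42, 13.44, 13.51 and 13.53 (13.47 ± 0.05). For these 2 chains mouse 1 was the lowest and mouse 4 the highest in the deposited values, within 1.06-fold and 1.08-fold. After quantile normalization, mice 1 and 4 were the 2 highest for Fga, Fgb and Fgg alike. With F2, Fgb and Fgg were the 3 coagulation genes of smallest SD in the deposited values. F13b, the carrier subunit of the enzyme that crosslinks fibrin, was found at 9.82 ± 0.14.

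**Figure D3:**
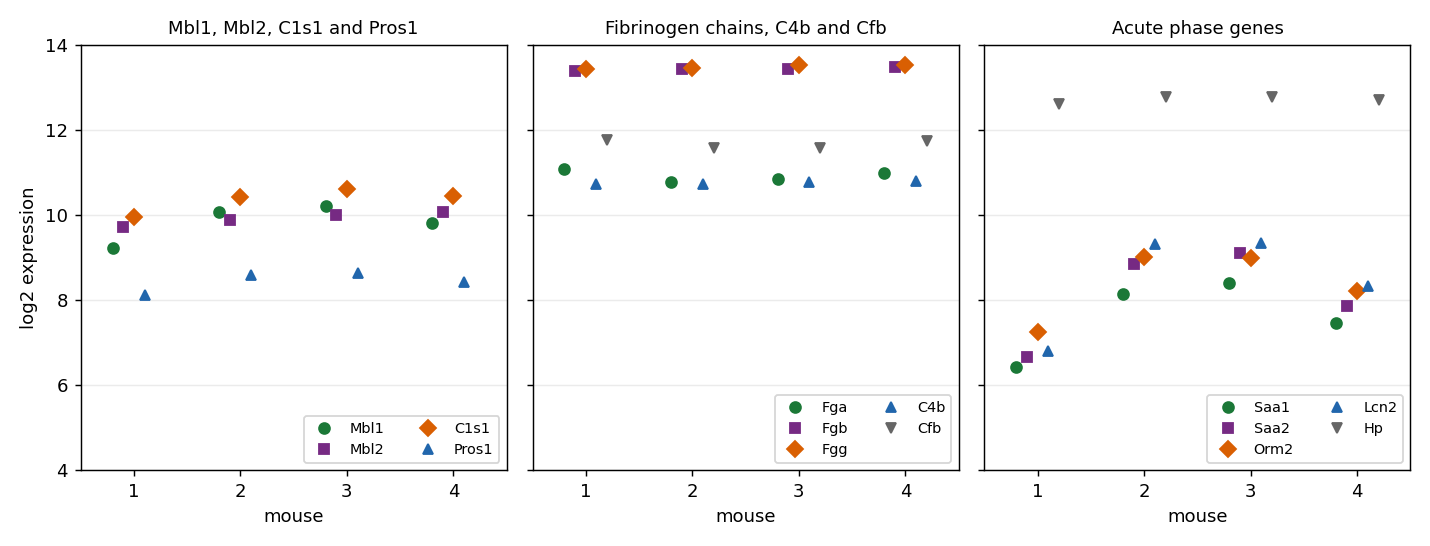
Log2 expression (vertical axis) in each of the 4 mice (horizontal axis, symbols shifted sideways for clarity) for Mbl1, Mbl2, C1s1 and Pros1, for the fibrinogen chains with C4b and Cfb, and for 5 acute phase genes. Mouse 1 is lowest for all 4 genes on the left, Fga and Cfb are slightly higher in mice 1 and 4, and Saa1, Saa2, Orm2 and Lcn2 spread far more than any member.

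All 4 measured anticoagulants were lowest in mouse 1 in the deposited values, as were 78.0% of the highest decile, but after quantile normalization Pros1 alone was, and Proc, Serpinc1 and Serpind1 were highest there. Pros1, the cofactor of activated protein C, was measured at 8.12, 8.59, 8.64 and 8.43 (8.44 ± 0.24), the largest SD among coagulation genes as deposited. Proc, protein C, was found at 10.68 ± 0.07, with 10.62 in both mouse 1 and mouse 3, and the thrombin inhibitors Serpinc1 (antithrombin) and Serpind1 (heparin cofactor) at 12.56 ± 0.08 and 11.64 ± 0.07. Of the fibrinolysis genes, Plg, plasminogen, was lowest in mouse 1 (12.35) and within 12.49 to 12.58 in the others. Serpinf2, the plasmin inhibitor antiplasmin, went the other way, with 11.22 and 11.26 in mice 1 and 4 and 11.06 and 11.08 in mice 2 and 3.

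Across both systems, 23 of 35 members were lowest in mouse 1, 10 of 17 in complement and 13 of 18 in coagulation. This was the case for 46.1% of all genes above background and for 78.0% of their highest decile, to which most members belong, so the count did not set the members apart. Mice 1 and 4 were the 2 highest for 6 members (Cfb, C8b, F12, F10, Fga and Serpinf2), against 15.3% of all genes and 11.6% of the highest decile. Acinar transcripts were high in the same mice, 10 of the 10 above background, and their part in these values was not tested.

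Compared by mouse, complement and coagulation lay close together. The median difference of a mouse from the other 3 was -0.12, -0.03, 0.03 and 0.09 in mice 1 to 4 for complement. For coagulation it was -0.12, 0.04, 0.06 and 0.05. Both systems were lower in mouse 1, and the largest difference between them was -0.07, in mouse 2. The corresponding medians were -0.08, 0.03, 0.05 and 0.02 over all genes and -0.23, 0.07, 0.13 and 0.03 over the highest decile. Set beside genes of the same 1-unit interval of level, which the median splits evenly, mouse 1 was above the interval's median for 11 of 17 complement and 10 of 18 coagulation genes. Between 11 and 12 this was so for 9 of 9 members, and between 9 and 10 for 0 of 3.

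These directions, and the order of the genes by SD, depended on the scaling of the arrays. When the 4 arrays were quantile-normalized, the medians of mouse 1 changed sign, to 0.082 for complement and 0.029 for coagulation, and those of mouse 3 became -0.087 and -0.051. Mouse 1 was then lowest for 7 of 35 members (20.0%), against 32.3% of all genes and 35.4% of the highest decile. Mice 1 and 4 were the 2 highest for 19 of 35 (54.3%), 11 of 17 in complement and 8 of 18 in coagulation, against 23.5% and 33.2%. Under the deposited values, median-centred and quantile-normalized arrays alike, mouse 1 was lowest for C1s1, F11, F5, F9, Mbl1, Plg and Pros1, and mice 1 and 4 were the 2 highest for C8b, Cfb, F12, Fga and Serpinf2. The difference of mouse 1 in Mbl1 was -0.82 as deposited and -0.57 after quantile normalization, in C1s1 -0.54 and -0.31, and in Fga 0.21 and 0.41. Mbl1 had the largest SD of all members under all 3 scalings. The 3 smallest SDs after quantile normalization were those of Cfi (0.015), C4bp (0.033) and Masp2 (0.054) in complement and of F7 (0.025), Plg (0.028) and Fgb (0.0345) in coagulation, whereas Vtn had 0.079, C4b 0.118, Hc 0.110 and Fgg 0.062. On median-centred arrays, F2 (0.025) lay below Vtn (0.040).

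**Figure D4:**
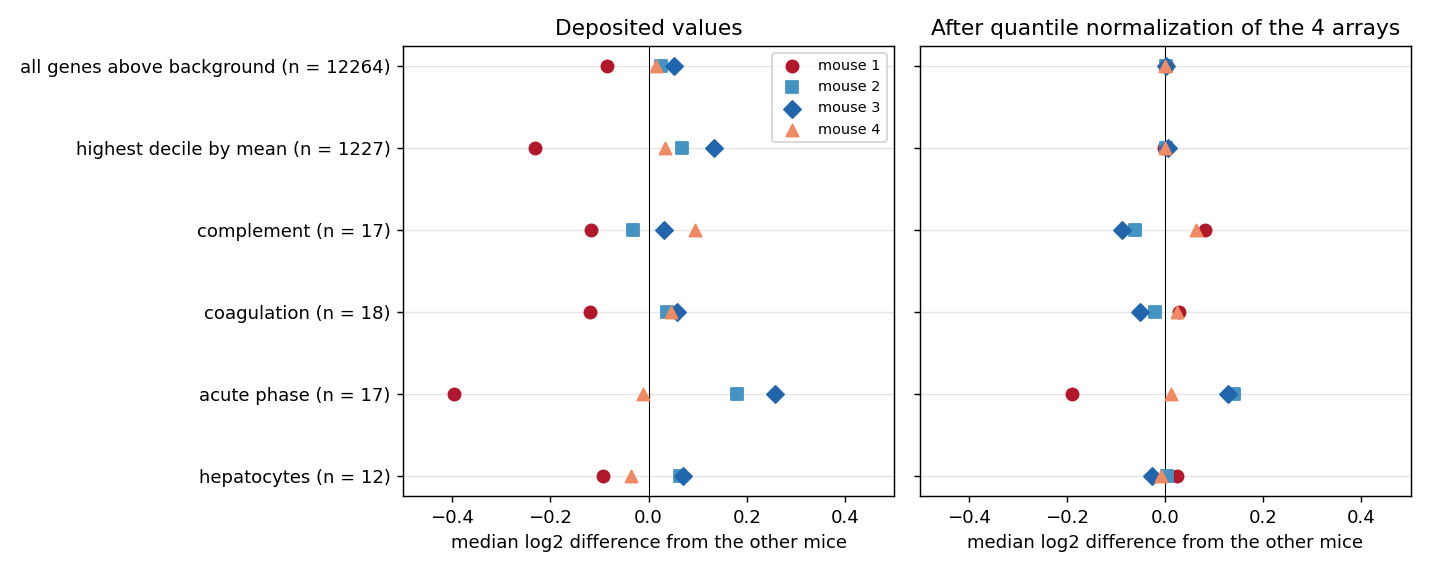
Median difference of each mouse from the mean of the other 3 (log2, horizontal axis) for complement, coagulation and other gene lists, with the number of genes above background in brackets, for the deposited values (left) and after quantile normalization of the 4 arrays (right). For both systems mouse 1 lies at -0.12 on the left and above 0 on the right, whereas the acute phase list stays below 0 in mouse 1.

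Further genes of both cascades were taken from lists written for this purpose. Of 29 further complement genes, 25 were measured and 20 were above background. In the deposited values, 4 of these varied by more than 1.5-fold, against 12.9% of all genes above background. After quantile normalization, 2 of the 20 did, against 1300 of 12264 genes. Cd59a, a membrane inhibitor of the pore, was measured at 10.30, 11.30, 11.37 and 10.75 in mice 1 to 4 (SD 0.51). C1qb, a chain of the recognition molecule C1q that macrophages make, was measured at 8.00, 8.73, 8.78 and 8.49 (SD 0.36), and Vsig4, the complement receptor of Kupffer cells, at 7.90, 8.37, 8.55 and 8.53 (SD 0.30). Mouse 1 was the lowest for Cd59a, C1qb and Vsig4. The summed linear level of 10 macrophage markers, all above background, ranged from 2136 to 2465 and was also lowest in mouse 1, and its part in C1qb and Vsig4 was not tested. Single markers differed in direction, with 6 of the 10 lowest and 3 (Clec4f, Marco and Timd4) highest in mouse 1. The other C1q chains did not share the order of C1qb, with C1qa at 8.09, 7.85, 7.98 and 7.91 and C1qc at 7.84, 7.75, 7.76 and 8.05. The fourth gene was C1s2, the paralogue of C1s1, with 1.58-fold. C7, Cr2, Cd46, C5ar1 and Itgam were not above background on all arrays.

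Of 28 further coagulation genes, 25 were measured and 18 were above background. In the deposited values, 3 of these varied by more than 1.5-fold, against 12.9% of all genes above background. After quantile normalization, 2 of the 18 did. Tfpi, the inhibitor of the tissue factor pathway, was measured at 5.65, 6.54, 6.14 and 6.11 (SD 0.37), close to the background limit in mouse 1. F2r, a thrombin receptor, was measured at 7.52, 8.06, 8.13 and 7.94 (SD 0.27), and Adamts13, the protease that trims von Willebrand factor, at 6.15, 5.92, 6.07 and 6.52 (SD 0.26). In the deposited values, the highest mouse was thus a different one for each of these 3 genes. After quantile normalization, it was mouse 2 for both Tfpi and F2r. F3 (tissue factor), F13a1, Thbd, Plat, Plau, Serpina5 and Fgl2 were not above background on all arrays.

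Among transcription factors and receptors that govern hepatocyte and acute phase genes, 14 of 18 listed were measured and 13 were above background. Of these, 2 varied by more than 1.5-fold, against 12.9% of all genes above background, and 2 did so after quantile normalization. Onecut1, a hepatocyte factor, was measured at 9.20, 7.16, 7.71 and 8.92 (SD 0.97), so mice 1 and 4 stood well above mice 2 and 3, a range of 4.12-fold. Cebpa, a factor that binds C/EBP motifs, was measured at 9.91, 9.18, 9.31 and 9.72 (SD 0.34), again with mice 1 and 4 the higher ones. Hnf4a, a nuclear receptor of hepatocytes, was measured at 10.19, 10.60, 10.62 and 10.48 (SD 0.20). Cebpd was not above background.

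Several members are known as acute phase genes, so a list of other acute phase genes was set beside them. Of 18 such genes, 17 were above background (Orm3 was not) and 9 varied by more than 1.5-fold, with a median SD of 0.24. The share of all genes above background with such a range was 12.9%. After quantile normalization, 5 acute phase genes varied by more than 1.5-fold, and the median SD was 0.159, against 0.138 over all genes. Lcn2, lipocalin that binds bacterial siderophores, was measured at 6.80, 9.31, 9.34 and 8.33 (SD 1.19). Saa2 was measured at 6.65, 8.85, 9.10 and 7.85 (SD 1.11) and Saa1 at 6.43, 8.15, 8.40 and 7.46 (SD 0.88), both serum amyloid A proteins. All 3 were lowest in mouse 1 and next lowest in mouse 4. The median difference of the list in mouse 1 was -0.40, and -0.19 after quantile normalization.

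Promoter sequences were matched for 26 of the 35 measured genes, 13 promoters of complement and 15 of coagulation. Chromosome 18, on which Proc lies, was left out for the members but not for the promoters of all genes. The HNF1 motif GTTAATNAT, searched on both strands like all others, was found in 2 complement promoters (C4bp and Hc) and 2 coagulation promoters (F13b and Fga), and in 0.801% of all 32851 promoters. The C/EBP motif TTGCNNAA was found in 3 (C1ra, C1s1 and C9) and 5 (F11, F9, Fga, Fgb and Serpinc1), and in 10.8% of all. The STAT motif TTCNNNGAA was found in 3 (C1ra, Masp2 and Vtn) and 4 (F9, Fga, Fgb and Pros1), and in 8.30% of all. CTGGGAA was found in 3 (C1ra, Masp2 and Vtn) and 3 (F9, Fgb and Fgg), and in 11.1% of all, and it overlapped a STAT match in F9, Masp2 and Vtn. The TATA motif TATAAA was found in 2 complement promoters (Hc and Vtn), 0 coagulation promoters and 13.6% of all, and the HNF4 motif CAAAGTCCA in none of the members and 0.475% of all. Members with and without a motif were not compared in level.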

How the data were processed

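Liver RNA of 4 aP2-SREBP-1c mice was analysed from gene-level values deposited by the authors. These are log2 expression values of Mouse Gene 1.0 ST arrays, which the authors obtained by RMA (background correction, quantile normalization and median polish) in the Affymetrix Expression Console, per the labels. The genome build and the arrays that were normalized together are not given in the sources used here. Every value column was matched to a mouse, and 0 columns remained without a sample. That the mice are separate animals follows from their labels.

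Names came from the platform annotation and the RefSeq table of GRCm38.p6. Of 35556 probe sets, 21789 had 1 symbol, 1621 several and 12146 were unnamed here, and 999 genes had several probe sets of 1 symbol. Means, SDs and ranges were computed on the log2 scale with Python 3.11.15, numpy 2.4.6 and pandas 2.3.3, and figures with matplotlib 3.10.9. Steps were tested on simulated data. The members and lists were chosen with earlier results of these data known. Values of every mouse are given for members above a 1.5-fold range, the fibrinogen chains, F2 and the 3 genes of smallest SD in each system, and for further examples chosen after their values were seen. Of the lists of further complement, further coagulation, regulator and acute phase genes, the 3 of largest SD and those not above background are named. The number of arrays limits the precision. Correlations between arrays across genes ranged from 0.974 to 0.993, and genes are not independent replicates. Median-centred and quantile-normalized arrays, other limits, other probe set rules and each mouse left out were tried as alternatives.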

Additional observations from a re-analysis of the deposited data

Results flagged for a closer look

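In 2 of 47 named genes, 1 mouse lay far from the other 3 in the deposited values. F10, the protease that cleaves prothrombin, was higher in mouse 4 than the mean of the others by 0.13 on the log2 scale. F11 differed by -0.32 in mouse 1. After quantile normalization, F10 was highest in mouse 1, with differences of 0.171 in mouse 1 and 0.11 in mouse 4. F11 then differed by -0.12 in mouse 1. The same distance criterion was met by 5.75% of all genes above background, and chance alone gives about 1 in 20.

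Signal was also present in 2 probe sets that name 2 genes each and were not used above. The probe set shared by C1rb and C1ra had a mean of 10.27, and that shared by Cyp4v3 and Klkb1 a mean of 11.19, both above the background limit of every array.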

How the results depend on the processing

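No paired analysis was possible because there was only 1 group of mice. Of 35 members, the number with more than 1.5-fold between mice was 1 after quantile normalization (Mbl1), 1 at a 2-fold range, and between 0 and 2 when each mouse was left out. It was 0 without mouse 1 and 1 without mouse 3. Over all genes above background the count was 1584, but 138 at a 2-fold range, 3749 without a background limit and between 346 and 1295 with a mouse left out, lowest without mouse 1. The median SD of coagulation was 0.075 after quantile normalization (complement 0.118) and 0.078 to 0.12 with a mouse left out, and that of complement was 0.13 on median-centred arrays. Quantile normalization reversed the difference of mouse 1, to 0.082 for complement and 0.029 for coagulation, gave -0.087 and -0.051 in mouse 3, and a complement minus coagulation difference of 0.053 in mouse 1, which lay between -0.032 and 0.10 with a mouse left out. The cause was not tested. The mean of all probe sets of Fga gave 9.83. Of 245 values for levels of single genes, 244 moved by less than 1 SD, but most could not have moved further. Leaving out a mouse cannot shift a mean by 1 SD, and median-centring left the means unchanged. Averaging probe sets alters only Fga, the only member with several. The count is therefore no measure of stability. Only the quantile-normalized levels and the averaged probe sets of Fga could move that far, and the latter alone did. Genes near the background limit, such as Tfpi, are limited by signal over background.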
